A study of Homo sapiens with 6 samples.

Results

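The actin cytoskeleton and contractility genes described here number 41 of the 23024 genes listed for the series. They were chosen by gene symbol, with earlier results of these data known. They cover actins, crosslinkers, myosins, tropomyosins, focal adhesion and turnover genes and the transcription factors SRF and the MRTFs. All 41 had a row of values, and 39 reached a mean of 1 FPKM over the libraries and were tested. The cells were 5637, an established human bladder carcinoma line whose total RNA was extracted after transfection. In 3 libraries, labelled sh-RAD51C, the genotype label is RAD51C knockdown, sh being the usual short form for a hairpin RNA; the other 3, labelled NC with genotype WT, were their comparison. The hairpin sequence, the time after transfection and the meaning of NC are not given in the labels, and all libraries came from this 1 line.

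Actin filaments are built from actin monomers and set the shape, adhesion and motility of a cell. Alpha-actinins and filamin crosslink them, tropomyosins coat them, and non-muscle myosin II pulls on them, which makes contractile stress fibres anchored at focal adhesions. Free actin monomer holds the coactivators MRTFA and MRTFB in the cytoplasm. When monomer is used up they enter the nucleus and act with SRF, which binds the CArG box in the promoters of many cytoskeletal genes.

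Values are FPKM, reads scaled by gene length and by library total, so levels of different genes are per length. Inferred depth was 37104318 to 38079825 reads in sh-RAD51C libraries and 36068282 to 37560184 reads in NC libraries, and tested genes of the 41 held between 50 reads (MYL9) and 193399 reads (ACTG1) in a library. RAD51C itself stood at 3.51, 3.09 and 2.95 FPKM in sh-RAD51C libraries 1, 2 and 3, against 14.7, 13.2 and 13.6 FPKM in NC libraries 1, 2 and 3. Its log2 fold change was -1.83 in limma, with a Benjamini-Hochberg adjusted p of 7.16e-09. Log2 fold changes are differences of log2(FPKM + 1), sh-RAD51C minus NC, while folds are ratios of mean FPKM. The sh-RAD51C 1 library stood apart from its group by gene length: its deviation from the group mean fell by 0.0399 on the log2 scale per doubling of length, against slopes of 0.0133 and 0.0265 in sh-RAD51C 2 and 3 and of -0.0057 to 0.006 in NC libraries, over 11151 genes. All 8 epithelial markers averaged at least 1 FPKM. KRT7, KRT8, KRT18 and EPCAM were called higher, by 1.26-fold to 1.68-fold, and KRT5, KRT19, TP63 and CDH1 lower, by 1.09-fold (CDH1) to 2.28-fold (KRT5). Exons of 21 of the 41 genes overlap those of another gene in GENCODE 29 (GRCh38, the source of all gene positions given), 19 of them on the opposite strand, and strand use in counting is not stated, so reads of such neighbours cannot be told apart. How reads matching close paralogs, such as ACTB with ACTG1 and MYL12A with MYL12B, were assigned is not stated either, so some may be mixed.

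Most of the actin cytoskeleton genes were higher in sh-RAD51C libraries than in NC libraries. Of the 39 tested, 25 rose, 6 fell and 8 were not called, with a median log2 fold change of 0.19, against -0.01 over all genes tested. FHL2, a LIM-domain protein of focal adhesions and the nucleus, rose most, 1.8-fold, followed by ACTN1, TPM1, CNN3 and PXN at 1.5-fold to 1.59-fold. The 6 that fell were TPM2, CAPG, PDLIM1, MYH10, TAGLN2 and VASP, by at most 0.49 on the log2 scale. Across all 11152 genes tested 49.4% were called by limma at an adjusted p under 0.05, 23.2% higher and 26.2% lower, while among the 39 cytoskeleton genes 64.1% were higher and 15.4% lower. Because the genes were chosen with earlier results of these data known, these shares describe the list and are no independent test of it. The groups did not overlap in 27 of the 39 with sh-RAD51C higher and in 7 with sh-RAD51C lower, against 27.6% and 30.8% of all genes tested (58.4% in either direction). Without sh-RAD51C 1 the counts were 24 higher and 7 lower. In bulk RNA, fewer cells of a type and less RNA per cell cannot be told apart.

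**Figure D1:**
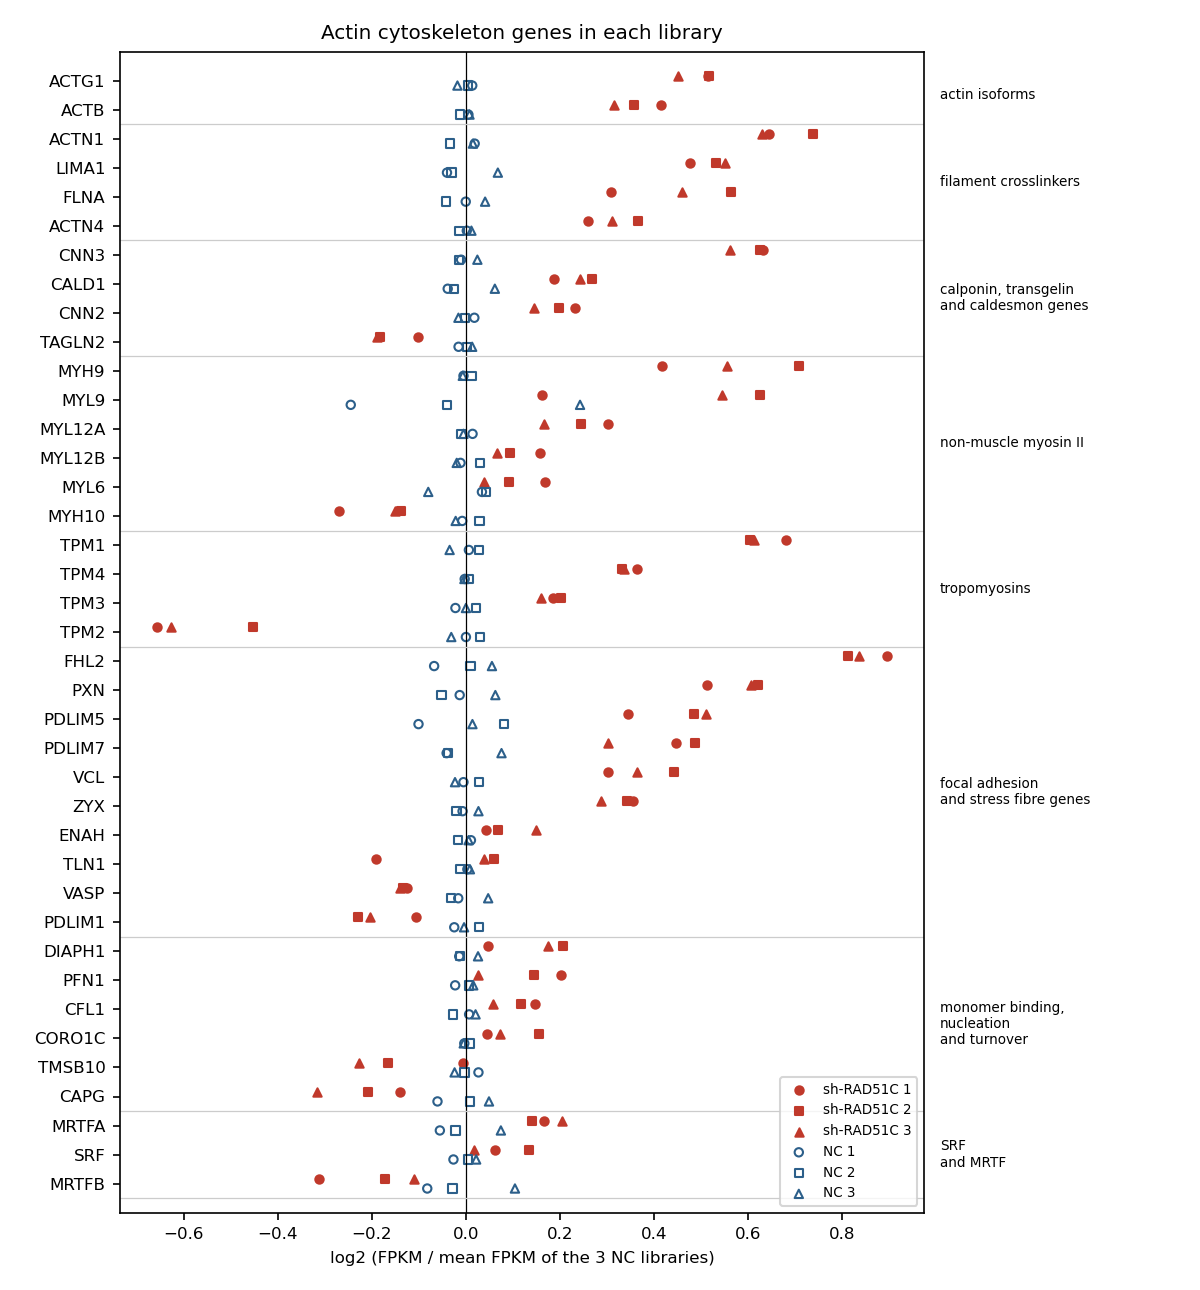
Each row is 1 of the 39 tested genes, with its FPKM in every library divided by the mean of the 3 NC libraries, on a log2 axis; filled red symbols are sh-RAD51C libraries and open blue symbols NC libraries. In 27 rows all red symbols lie to the right of all blue ones, in 7 rows to the left, and FHL2 and ACTN1 lie farthest right while TPM2 lies farthest left.

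**Figure D2:**
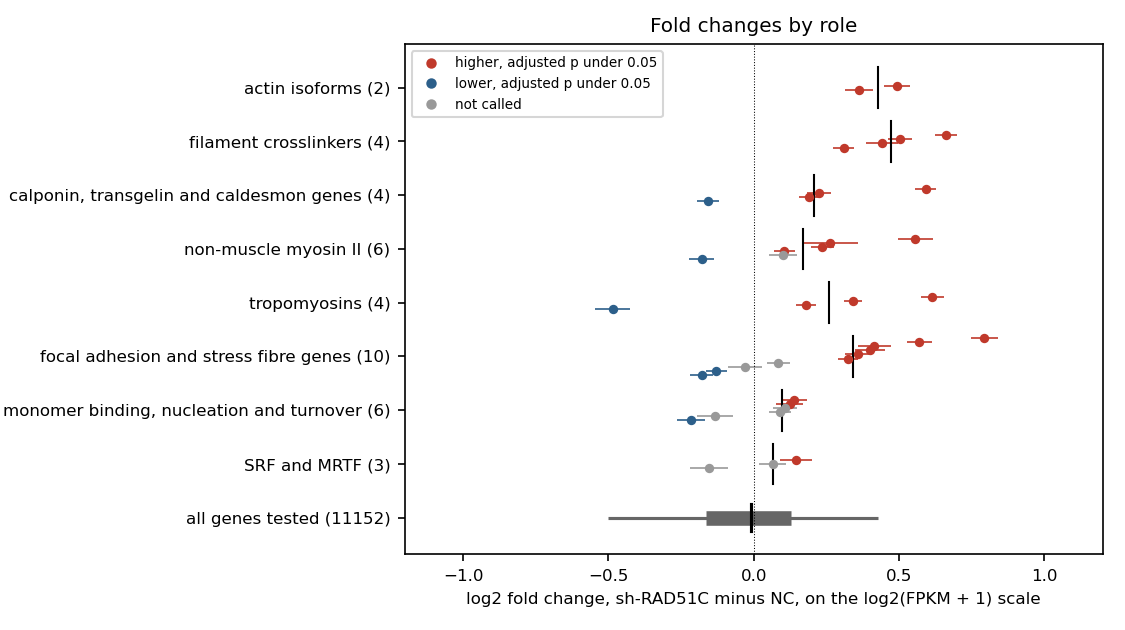
Points give the log2 fold change (sh-RAD51C minus NC) of each gene with its standard error, grouped by role, and black ticks the median of each role; the grey bar gives the 25th to 75th percentile of all 11152 genes and its line the 5th to 95th. The role medians run from 0.07 for SRF and the MRTFs to 0.47 for the crosslinkers, against -0.01 for all genes, whose 95th percentile is 0.43.

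Of the transcription factor genes themselves, only MRTFA was called. SRF, on chromosome 6 from 43171299 to 43181507, had 11.8, 12.4 and 11.5 FPKM in sh-RAD51C libraries and 11.1, 11.4 and 11.5 FPKM in NC libraries. The groups overlapped, and it was not called (0.07 on the log2 scale, limma adjusted p = 0.263), nor in any of 16 alternative analyses. MRTFA had 5.84, 5.74 and 6 FPKM in sh-RAD51C libraries, against 5.01, 5.13 and 5.48 FPKM in NC libraries. It rose 1.13-fold without overlap (limma adjusted p = 0.0456). That call was lost without sh-RAD51C 1, 2 or 3 (limma adjusted p = 0.0591, 0.0697 and 0.11), without NC 1 or 2 (0.152 and 0.131) and with no filter. MRTFB stood at 3.13, 3.45 and 3.6 FPKM in sh-RAD51C libraries and at 3.67, 3.81 and 4.17 FPKM in NC libraries. It was lower in every sh-RAD51C library but not called (limma adjusted p = 0.0772). Among 15 alternatives it was called only with limma's voom on inferred reads, as lower (0.0157). MRTFA made up 62.5% to 65.1% of the summed FPKM of both coactivators in sh-RAD51C libraries, against 56.8% to 57.7% in NC libraries.

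CArG boxes, the sites SRF binds, were sought in the 250 bases before each RefSeq start of 38 of the 41 genes (72 windows). ACTB, MYL9 and TAGLN had no window and were not searched. The motif reads alike on both strands. ACTG1, ACTN1, CNN2, FHL2, FLNA, SRF and TPM4 held one, 18.4% of those 38 genes against 1.44% of all 27305 genes with a window. The 38 genes have more windows each than genes at large, and per window the shares were 12.5% of 72 and 1.16% of 35116. The list is made of genes known for this pathway, so these shares, like those of the motifs that follow, describe how it was composed. Of those 7, 6 rose and SRF was not called; of 30 tested genes whose windows held no such match, 17 rose and 6 fell. Stretches holding the box are printed 5′ to 3′ on the strand of the gene, from RefSeq on GRCh38.p14, with the box in capitals and bases inside any GENCODE exon left off, because these promoters belong to genes that rose and to SRF, which was not called:
FHL2, chr2:105438530-105438779, minus strand: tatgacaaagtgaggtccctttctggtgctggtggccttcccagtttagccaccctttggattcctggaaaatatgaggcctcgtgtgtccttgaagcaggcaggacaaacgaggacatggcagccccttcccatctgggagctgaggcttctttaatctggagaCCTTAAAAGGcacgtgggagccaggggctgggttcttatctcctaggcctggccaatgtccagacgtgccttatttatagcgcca
ACTN1, chr14:68977655-68977816, minus strand: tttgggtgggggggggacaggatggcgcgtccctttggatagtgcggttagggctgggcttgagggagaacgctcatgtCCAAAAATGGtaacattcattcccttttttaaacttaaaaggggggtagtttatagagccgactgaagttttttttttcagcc
TPM4, chr19:16067307-16067506, plus strand: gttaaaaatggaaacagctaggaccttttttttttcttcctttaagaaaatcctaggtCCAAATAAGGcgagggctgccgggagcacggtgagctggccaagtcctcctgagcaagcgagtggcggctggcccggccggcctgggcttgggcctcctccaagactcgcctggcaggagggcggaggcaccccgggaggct
CNN2, chr19:1026358-1026580, plus strand: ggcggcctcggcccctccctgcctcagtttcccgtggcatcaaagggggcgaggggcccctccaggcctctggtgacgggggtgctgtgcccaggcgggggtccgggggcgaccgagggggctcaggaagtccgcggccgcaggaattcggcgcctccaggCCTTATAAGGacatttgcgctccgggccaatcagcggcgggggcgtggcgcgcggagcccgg
SRF, chr6:43171019-43171268, plus strand: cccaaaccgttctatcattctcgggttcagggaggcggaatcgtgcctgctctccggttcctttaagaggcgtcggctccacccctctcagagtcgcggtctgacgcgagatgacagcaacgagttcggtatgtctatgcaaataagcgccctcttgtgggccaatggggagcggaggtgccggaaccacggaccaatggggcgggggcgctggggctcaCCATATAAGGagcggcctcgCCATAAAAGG

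The boxes of FHL2, ACTN1, TPM4 and CNN2 begin 85, 171, 173 and 89 bases before a RefSeq start site, and the SRF window holds a pair of boxes beginning 30 and 10 bases before its start. ACTG1 (CCATATATGG) and FLNA (CCAATTAAGG) each have a box 94 bases before a start, and FHL2 a further one (CCTTATATGG) 59 bases before a downstream start. GENCODE exons overlap these, so no longer stretch is printed. Apart from SRF and the printed FHL2 window, these starts lie inside the GENCODE span of their gene. The ACTN1 start is at 68977566, in a minus-strand span reaching 68979440, and the TPM4 start at 16067538, in a plus-strand span from 16067021. GGAATG or its complement CATTCC, the core that TEAD factors bind, was in 16.7% of the 72 windows against 11.9% of all windows. TGANTCA, the AP-1 motif, which reads alike on both strands, was in 6.94% against 6.57%. Of the 11 genes with GGAATG or CATTCC 9 rose and 1 fell, against 14 and 5 of 26 tested genes without it. With TGANTCA 2 of 5 rose and 2 fell, against 21 and 4 of 32 tested genes without it. A match is a run of letters, not a measured binding site.

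The cytoplasmic actins, the bulk of monomer and filament in a non-muscle cell, both rose. ACTG1, gamma-actin on chromosome 17 from 81509971 to 81523847, had 2492, 2498 and 2388 FPKM in sh-RAD51C libraries, against 1762, 1751 and 1724 FPKM in NC libraries. The lowest sh-RAD51C library was far above the highest NC library, and the difference was 0.49 ± 0.045 in log2 units (SE; limma adjusted p = 5.86e-06). ACTB, beta-actin on chromosome 7 from 5527147 to 5563784, had 2501, 2400 and 2332 FPKM in sh-RAD51C libraries and 1882, 1858 and 1885 FPKM in NC libraries, again without overlap. It rose 1.29-fold (log2 fold change 0.36 ± 0.047, SE; limma adjusted p = 8.18e-05). ACTG1 was 49.9% to 51% of the summed FPKM of this pair in sh-RAD51C libraries and 47.8% to 48.5% in NC libraries, so the order of the isoforms in their means was reversed between the groups. Together the pair took 0.909% to 0.961% of inferred reads in sh-RAD51C libraries and 0.693% to 0.7% in NC libraries. All 41 genes took 2.35% to 2.44% of reads in sh-RAD51C libraries, against 1.95% to 1.96% in NC libraries.

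All 4 crosslinker genes rose. ACTN1, alpha-actinin 1 of stress fibres on chromosome 14 from 68874143 to 68979440, had 89.1, 95 and 88.1 FPKM in sh-RAD51C libraries and 57.7, 55.6 and 57.6 FPKM in NC libraries, well apart. Its log2 fold change was 0.66 ± 0.039 (SE; limma adjusted p = 2.1e-07). ACTN4, its non-muscle paralog, rose 1.24-fold to 118 ± 4.37 FPKM, against 95 ± 0.844 FPKM in NC libraries (SD, n = 3 each). The ratio of ACTN1 to ACTN4 was 0.748 to 0.783 in sh-RAD51C libraries and 0.591 to 0.607 in NC libraries. FLNA, filamin A, which ties filaments into networks, had 160, 190 and 177 FPKM in sh-RAD51C libraries, against 129, 125 and 133 FPKM in NC libraries (1.36-fold, limma adjusted p = 7.01e-05). The sh-RAD51C libraries were spread more widely than the NC libraries, with sh-RAD51C 1 lowest. LIMA1, which bundles filaments and slows their disassembly, rose 1.43-fold to 34.5 ± 0.916 FPKM, against 24.1 ± 1.01 FPKM in NC libraries (SD, n = 3 each).

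Tropomyosins, the coiled coils that run along actin filaments, were divided. TPM1, on chromosome 15 from 63042632 to 63071915, had 43.6, 41.3 and 41.6 FPKM in sh-RAD51C libraries and 27.3, 27.7 and 26.5 FPKM in NC libraries. It rose 1.55-fold with groups far apart (log2 fold change 0.62 ± 0.038, SE; limma adjusted p = 3.2e-07). TPM4 held 143, 140 and 140 FPKM in sh-RAD51C libraries, against 111, 112 and 111 FPKM in NC libraries, and rose 1.27-fold (limma adjusted p = 6.6e-06). TPM3 rose 1.13-fold to 59.6 ± 0.879 FPKM, against 52.5 ± 0.802 FPKM in NC libraries (SD, n = 3 each). TPM2, on chromosome 9 from 35681992 to 35690121, went the other way, with 4.12, 4.75 and 4.21 FPKM in sh-RAD51C libraries and 6.5, 6.63 and 6.36 FPKM in NC libraries. It was 1.49-fold lower without overlap (log2 fold change -0.49 ± 0.06, SE; limma adjusted p = 5.74e-05). TPM1 was therefore 8.7 to 10.6 times TPM2 in sh-RAD51C libraries and 4.17 to 4.2 times TPM2 in NC libraries. The 4 genes summed to 245 to 251 FPKM in sh-RAD51C libraries, against 196 to 199 FPKM in NC libraries, with TPM4 the largest share in each (56.8% to 57.4% and 56% to 56.5%).

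Of the heavy chains of non-muscle myosin II, the motor of stress fibres, MYH9 rose and MYH10 fell. MYH14, the third such chain and not among the 41 genes, was scarce and 1.65-fold lower, at 1.17 ± 0.00626 FPKM in sh-RAD51C libraries and 1.93 ± 0.197 FPKM in NC libraries (SD, n = 3 each; limma adjusted p = 0.000448). MYH9, heavy chain IIA on chromosome 22 from 36281277 to 36388067, had 145, 177 and 160 FPKM in sh-RAD51C libraries and 108, 110 and 108 FPKM in NC libraries. It rose 1.48-fold, and its spread was 16.2 FPKM in sh-RAD51C libraries against 0.761 FPKM in NC libraries (SD, n = 3 each; limma adjusted p = 1.92e-05). MYH10, heavy chain IIB, had 21.7, 23.7 and 23.5 FPKM in sh-RAD51C libraries, against 26, 26.7 and 25.7 FPKM in NC libraries. It was 1.14-fold lower with no overlap (limma adjusted p = 0.00571). The ratio of MYH9 to MYH10 was 6.69 to 7.47 in sh-RAD51C libraries and 4.11 to 4.2 in NC libraries.

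Among the light chains, MYL12A, a regulatory chain, rose 1.18-fold to 176 ± 8.35 FPKM, against 149 ± 1.29 FPKM in NC libraries (SD, n = 3 each; limma adjusted p = 0.000513). Its neighbour and close paralog MYL12B had 237, 227 and 223 FPKM in sh-RAD51C libraries, against 211, 217 and 210 FPKM in NC libraries (limma adjusted p = 0.0338). The MYL12B call was lost without sh-RAD51C 1 or 2 (limma adjusted p = 0.0553 and 0.065), without NC 1, 2 or 3 (0.11, 0.0581 and 0.103) and with upper quartile scaling (0.0537). It was also lost with no filter and with no variance trend. MYL9, the regulatory chain typical of smooth muscle, was scarce at 1.32, 1.82 and 1.72 FPKM in sh-RAD51C libraries and 0.995, 1.15 and 1.4 FPKM in NC libraries, from 50 to 94 reads a library. The groups overlapped, and the call (limma adjusted p = 0.0355) was lost without sh-RAD51C 2 or 3 (0.126 and 0.11) and without NC 1 or 2 (0.128 and 0.0871). It was also lost with no filter, with limma's voom on inferred reads and with the length trend removed. MYL6, the essential light chain and by far the most abundant, had 644, 611 and 589 FPKM in sh-RAD51C libraries and 587, 591 and 542 FPKM in NC libraries, overlapping and not called (limma adjusted p = 0.104). It was called higher with quantile normalization (0.0108) and with the length trend removed (0.00419).

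**Figure D3:**
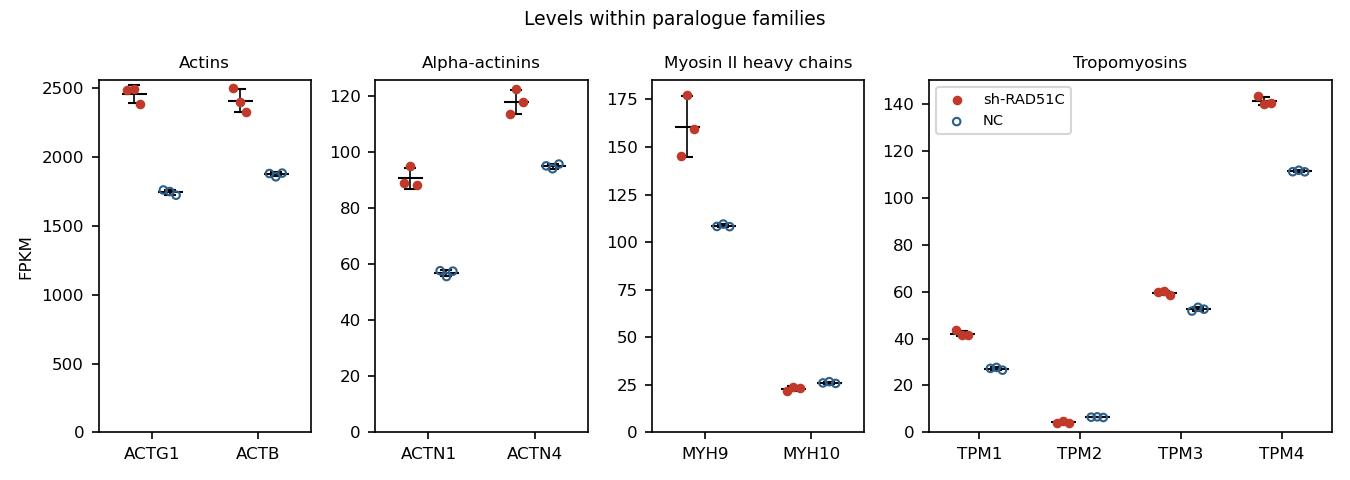
FPKM of actins, alpha-actinins, myosin II heavy chains and tropomyosins, with a linear axis from 0 in each panel; points are libraries (red sh-RAD51C, open blue NC) and bars the mean and SD of 3 libraries. ACTG1 and ACTB are both higher in sh-RAD51C, whereas MYH10 and TPM2 are lower beside higher MYH9 and TPM1.

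Calponin, transgelin and caldesmon genes, which bind along filaments and temper contraction, had 3 higher and 1 lower of 4 tested. CNN3 had 50.5, 50.4 and 48.2 FPKM in sh-RAD51C libraries and 32.4, 32.3 and 33.2 FPKM in NC libraries, a 1.52-fold rise with groups far apart (limma adjusted p = 2.92e-07). CNN2 rose 1.14-fold to 221 ± 6.8 FPKM, against 193 ± 2.29 FPKM in NC libraries, and CALD1, caldesmon, rose 1.18-fold to 26 ± 0.733 FPKM, against 22.1 ± 0.841 FPKM in NC libraries (SD, n = 3 each). TAGLN2, the transgelin of non-muscle cells, had 466, 441 and 439 FPKM in sh-RAD51C libraries, against 495, 501 and 505 FPKM in NC libraries. It was 1.12-fold lower without overlap (limma adjusted p = 0.00532). The smooth muscle forms were nearly silent: TAGLN held 0.561, 0.709 and 0.525 FPKM in sh-RAD51C libraries and 0.67, 0.619 and 0.837 FPKM in NC libraries, and CNN1 had 0 or 1 read in every library. Neither was tested.

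Focal adhesion and stress fibre genes had 6 higher, 2 lower and 2 not called of 10, with the largest rise of the 41 genes among them. FHL2, on chromosome 2 from 105357712 to 105438513, had 20.2, 19.1 and 19.4 FPKM in sh-RAD51C libraries, against 10.4, 10.9 and 11.3 FPKM in NC libraries. The groups lay far apart, and the difference was 0.79 ± 0.046 in log2 units (SE; limma adjusted p = 2.04e-07). PXN, the scaffold paxillin, had 60.8, 65.5 and 64.8 FPKM in sh-RAD51C libraries and 42.2, 41.1 and 44.5 FPKM in NC libraries, a 1.5-fold rise (limma adjusted p = 1.4e-06). The PDZ and LIM domain genes split, with PDLIM5 up 1.36-fold and PDLIM7 up 1.33-fold. PDLIM1 instead fell to 166, 152 and 155 FPKM in sh-RAD51C libraries, against 175, 182 and 178 FPKM in NC libraries (limma adjusted p = 0.00308). VCL, vinculin, which links talin to actin, had 34.2, 37.7 and 35.7 FPKM in sh-RAD51C libraries and 27.6, 28.3 and 27.3 FPKM in NC libraries (1.29-fold, limma adjusted p = 4.28e-05). ZYX, zyxin, a tension-sensing protein of stress fibres, rose 1.26-fold to 82.7 ± 2.02 FPKM, against 65.9 ± 1.11 FPKM in NC libraries (SD, n = 3 each).

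VASP and ENAH, which bind zyxin, and talin were not among those that rose. VASP, which speeds filament growth, had 32.4, 32.1 and 32 FPKM in sh-RAD51C libraries, against 34.9, 34.5 and 36.4 FPKM in NC libraries. It was 1.1-fold lower (limma adjusted p = 0.0131), a call lost without NC 3 (0.0602). ENAH, its relative, had 30.1, 30.6 and 32.4 FPKM in sh-RAD51C libraries and 29.5, 28.9 and 29.4 FPKM in NC libraries, higher in each but not called (limma adjusted p = 0.0977); it was called higher without sh-RAD51C 1 (0.0444) and with the length trend removed (0.00658). TLN1, talin 1, which couples integrins to actin, had 40.4, 48.1 and 47.3 FPKM in sh-RAD51C libraries, against 46.2, 45.7 and 46.4 FPKM in NC libraries. The NC libraries fell between sh-RAD51C 1 and its replicates, and the difference, -0.03 in log2 units (limma adjusted p = 0.692), was 0.05 without sh-RAD51C 1 (0.229).

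Genes of monomer binding, nucleation and turnover had 2 higher, 1 lower and 3 not called of 6 (median 0.1 in log2 units). The share called in either direction, 50%, was near the 49.4% of all genes tested. PFN1, profilin, which loads monomers for growth, had 504, 485 and 447 FPKM in sh-RAD51C libraries, against 432, 441 and 443 FPKM in NC libraries. The groups barely separated (limma adjusted p = 0.0441), and the call was lost without sh-RAD51C 1 or 2 (0.0959 and 0.124) and without NC 1, 2 or 3 (0.138, 0.106 and 0.076). It was also lost with no filter, with upper quartile scaling and with no variance trend. DIAPH1, a formin, which elongates filaments, had 44.1, 49.2 and 48.1 FPKM in sh-RAD51C libraries and 42.2, 42.3 and 43.4 FPKM in NC libraries (limma adjusted p = 0.0214). That call was lost without sh-RAD51C 2 or 3 (0.0853 and 0.0695), without NC 1 or 2 (0.0672 and 0.0686) and with quantile normalization (0.102). It was also lost with no filter and with no variance trend.

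CAPG, which caps filament ends, fell to 42.4, 40.4 and 37.5 FPKM in sh-RAD51C libraries, against 44.8, 47 and 48.3 FPKM in NC libraries (limma adjusted p = 0.00345). CFL1, the severing protein cofilin, had 1007, 987 and 946 FPKM in sh-RAD51C libraries and 913, 892 and 922 FPKM in NC libraries. It lay just short of the threshold (limma adjusted p = 0.0503), and was called higher in 5 of 16 alternatives, among them without sh-RAD51C 3 (0.0228). CORO1C, a coronin that works with Arp2/3, stood at 56.1, 60.5 and 57.2 FPKM in sh-RAD51C libraries and at 54.2, 54.7 and 54.2 FPKM in NC libraries (limma adjusted p = 0.0691, or 0.0258 without sh-RAD51C 1). TMSB10, a monomer-sequestering thymosin and the most abundant of the 41 genes, had 2796, 2503 and 2400 FPKM in sh-RAD51C libraries and 2862, 2803 and 2763 FPKM in NC libraries. Only sh-RAD51C 1 reached the NC range, and the difference was not called (limma adjusted p = 0.0909) except, as lower, in 4 of 16 alternatives, among them without sh-RAD51C 1 (0.0019).

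Gene length moved with these differences among sh-RAD51C libraries. Of the 39 genes, sh-RAD51C 1 gave the highest sh-RAD51C value in 17, with a median inferred length of 1776 bases, and the lowest in 16, with a median of 7078.5 bases. MYH9, FLNA, TLN1, VCL and PXN, from 6691 to 8623 bases, were lowest there, and TMSB10, PFN1 and MYL6, from 461 to 1437 bases, were highest. Exceptions ran both ways: MYL9 (1393 bases) and TPM2 (2232 bases) were short yet lowest in sh-RAD51C 1, and TPM1 (6330 bases) and FHL2 (5516 bases) were long yet highest there. With each library's length trend removed, 28 genes were higher and 7 lower, and the median log2 fold change of the cytoskeleton genes was 0.23.

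**Figure D4:**
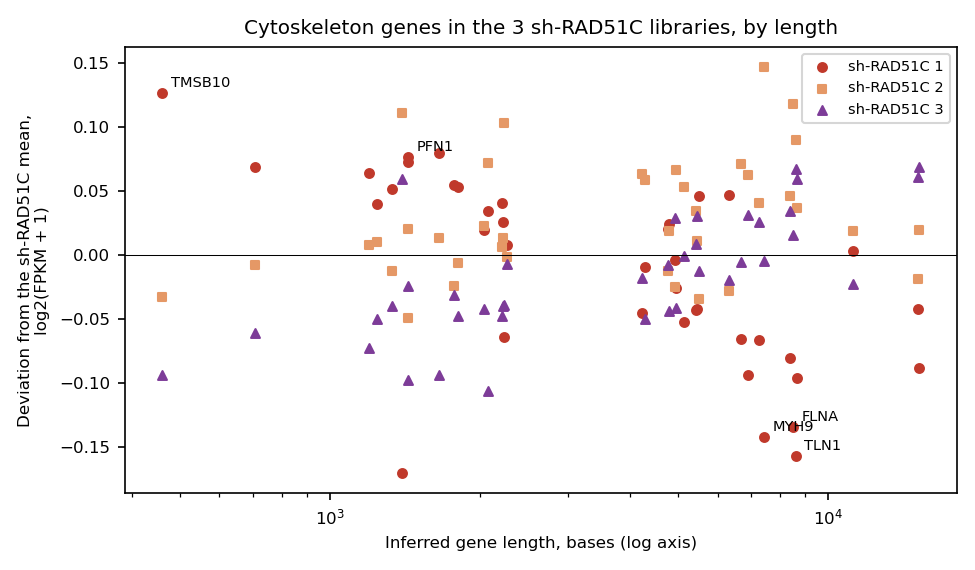
Deviation of each sh-RAD51C library from the mean of the 3 sh-RAD51C libraries, on the log2(FPKM + 1) scale, against inferred gene length on a log axis; each of the 39 genes gives 3 points. The sh-RAD51C 1 points are mostly above 0 for short genes such as TMSB10 and below 0 for long ones such as TLN1 and FLNA, with MYL9 (1393 bases) a short gene far below 0.

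Further genes of the pathway, taken from lists drawn up with earlier results of these data known, were divided by function. The called genes of smallest p named from each list, at most 4, have limma adjusted p-values from 1.24e-09 to 0.011. Muscle actins, myosins and SRF targets had 10 higher and 2 lower of 16 tested (median log2 fold change 0.33), against 23.2% higher and 26.2% lower of all genes. The 2 lower were MYH14, by 1.65-fold, and CSRP2, by 1.18-fold. The 4 not called were ACTA2, SMTN, FHL1 and EGR1. The muscle actins ACTA1, ACTC1 and ACTG2 lay below the filter, as did MYH11 and FOS among others, so no muscle actin was called higher. CCN1 and CCN2, matricellular genes that answer both SRF and YAP, rose 8.28-fold and 5.48-fold, and the junction protein gene AMOTL2 2.49-fold. ANKRD1 had 7.33 ± 0.405 FPKM in sh-RAD51C libraries, against 0.512 ± 0.0589 FPKM in NC libraries (SD, n = 3 each; log2 fold change 2.46). ANKRD1 and NEXN, both among the 10, reached a mean of 1 FPKM only through the sh-RAD51C libraries, so their entry into the count is tied to their difference. Severing, capping and membrane linker genes had 18 higher and 6 lower of 34 (median 0.12). These were 52.9% and 17.6% of those tested, against 23.2% and 26.2% of all genes. Among the 6 lower, GSN fell 1.54-fold and TWF2 1.27-fold. COTL1, a filament-binding protein of the cofilin family, rose to 219 ± 6.14 FPKM, against 122 ± 3.53 FPKM in NC libraries (SD, n = 3 each), the bundler PLS3 rose 1.43-fold, MICAL2, which oxidises actin and is known to promote SRF activity, 1.91-fold and the membrane linker EZR 1.36-fold.

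Other adhesion plaque genes had 8 higher, 2 lower and 14 not called of 24 (median log2 fold change 0.06). The share called in either direction was 41.7%, below the 49.4% of all genes. PARVA, LIMS1 and AJUBA rose 1.24-fold, 1.27-fold and 1.24-fold and the adaptor BCAR1 1.2-fold. The 2 called lower were TLN2, by 1.42-fold, and SRC, by 1.08-fold. Arp2/3 and WAVE genes, which build branched networks, had 3 higher and 7 lower of 19 (median -0.01); 52.6% were called in either direction, near the 49.4% of all genes. The WAVE complex genes ABI1, ABI2 and WASF2 were 1.3-fold, 1.31-fold and 1.23-fold lower, and the Arp2/3 subunit ARPC5L 1.11-fold higher. Calls went both ways in each complex: the Arp2/3 subunits ARPC5 and ARPC2 were called lower (1.1-fold and 1.07-fold), and the WAVE subunit CYFIP1 higher (1.13-fold).

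**Figure D5:**
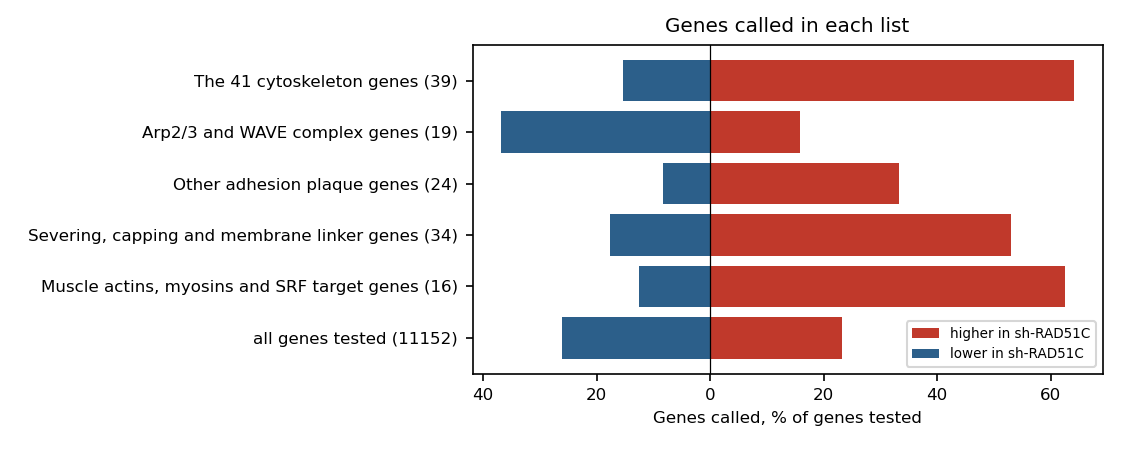
Percent of tested genes called higher (red, right) and lower (blue, left) in sh-RAD51C at a limma adjusted p under 0.05, with the number tested in brackets. The 41 cytoskeleton genes (39 tested) reach 64.1% higher, against 23.2% of all genes, and 15.4% lower, against 26.2%. Arp2/3 and WAVE genes have 15.8% higher and 36.8% lower, with a share called near that of all genes.

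Defining markers of smooth muscle were near 0. Of 8 smooth muscle markers 7 had a row, and only ACTA2 and SMTN averaged 1 FPKM: ACTA2 stood at 2.27 ± 0.287 FPKM in sh-RAD51C libraries and 2.53 ± 0.325 FPKM in NC libraries, and neither was called. MYH11, DES and ACTG2, which define that cell type, averaged under 0.05 FPKM in both groups. The list summed to 6.17 to 6.97 FPKM in sh-RAD51C libraries and 6.23 to 6.49 FPKM in NC libraries, and 7 fibroblast markers with a row (2 above 1 FPKM, COL1A1 lower and THY1 higher) to 12.1 to 12.9 FPKM in sh-RAD51C libraries and 14.6 to 14.9 FPKM in NC libraries. None of 6 endothelial markers averaged 1 FPKM. The 3 blood cell markers with a row summed to 87.8 to 92.3 FPKM in sh-RAD51C libraries and 94.4 to 102 FPKM in NC libraries, nearly all from LAPTM5, with the pan-leukocyte gene PTPRC at or near 0. LAPTM5 and CD14 were called lower, by 1.09-fold and 2.75-fold (limma adjusted p = 0.0216 and 0.000576), CD14 from means of 0.573 FPKM in sh-RAD51C libraries and 1.57 FPKM in NC libraries. CD14 thus reached a mean of 1 FPKM only through the NC libraries, so its being tested is tied to its difference.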

How the data were processed

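Gene expression was measured by RNA sequencing in 6 libraries of 5637 cells, 3 labelled sh-RAD51C and 3 labelled NC. The authors deposited FPKM values for 23024 gene symbols. DESeq2, R 3.2.0 and build hg38 are listed, with no use described, per the submitters' processing notes. Aligner, counter, strand setting and annotation: not given in the sources used here. Columns were matched to libraries by title.

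Genes averaging at least 1 FPKM over all libraries (11152) were compared between groups as log2(FPKM + 1) by limma 3.58.1 under R 4.3.3. The variance prior followed mean level, no covariate entered, and adjusted p-values (Benjamini-Hochberg over those genes) were called below 0.05. FPKM values were whole multiples of a step set by length and library total, so reads and lengths were inferred for 99.99% of these genes, to within 1e-06 reads. Both steps were tested on simulated data without a length trend, with library totals taken as known. The inference of the totals was therefore not tested. Members and lists were chosen with earlier results of these data known. Every member is named, together with up to 4 called genes of smallest p per further list and some others given beside them. Positions and exon overlaps came from GENCODE 29 on GRCh38 and promoter windows from RefSeq (GRCh38.p14). The labels do not tie replicates to separate cultures, so p-values reflect library-to-library spread that may be technical. Other calculations ran in Python 3.11.15 with scipy 1.17.1. Alternatives covered the pseudocount, filter, scaling, variance model, a replicate block, limma's voom on inferred reads and omission of each library. Removal of the length trend was added after seeing the data. A further gene list is not reported here.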

Additional observations from a re-analysis of the deposited data

How the results depend on the processing

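The counts for the 39 tested cytoskeleton genes ran from 20 to 28 higher and from 5 to 8 lower over 16 alternatives, each within 1.5 times the 25 and 6 reported, and from 20 to 24 higher and 5 to 7 lower with a library left out. Of the 31 genes called, 25 were called in every alternative run (20 higher and 5 lower); the other 6, MYL9, MYL12B, PFN1, DIAPH1, MRTFA and VASP, lost their call in at least 1. Among 8 genes not called, TLN1 and SRF were called in no alternative. TLN1 changed sign, at a log2 fold change of 0.0087 without the length trend and 0.0485 without sh-RAD51C 1, in a range of -0.0748 to 0.0485 over libraries left out; the cause was not tested. No scaling moved the median of all genes by over 0.1 on the log2 scale. With a replicate block 25 cytoskeleton genes were higher and 7 lower, and 5569 of all genes were called against 5511. Same-numbered libraries correlated in their deviations by 0.19, 0.026 and 0.091. For sh-RAD51C 1 and 3 this was the highest of their correlations with NC libraries, but sh-RAD51C 2 correlated best with NC 3 (0.11). These values do not settle whether the numbers mark pairs, and the main comparison did not take them as pairs. RAD51C was lower in every alternative, with log2 fold changes from -2.12 to -1.78. CNN1 had no more than 1 read in a library, where no difference was detectable, and MYL9, with 50 to 94 reads, was called in 8 of the 15 alternatives that could include it. Libraries of a group differed by more than counting noise (3.69 to 14.3 chi-square units per degree of freedom).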
